A study of Mus musculus with 5 samples.

Results

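The genes of the respiratory chain and of the mitochondrial ATP synthase were followed in mouse epiblast stem cells (EpiSCs) that were driven towards mesoderm at graded FGF signaling. The members were all genes whose symbol begins with Ndufa, Ndufb, Ndufc, Ndufs, Ndufv, Uqcr, Cox4 to Cox8 or Atp5, and all genes whose symbol begins with mt-. This gave 103 of the 32285 genes in the count tables, 90 of them encoded in the nucleus and 13 in the mitochondrial genome. EpiSCs are pluripotent cells from the epiblast of the post-implantation embryo, and the cells here came from 1 wild-type line. All of the cultures were kept for 3 days in N2B27 with the Wnt agonist Chir99021 (Chi) at 1 µM and with BMP at 8 ng/ml. The labels spell the agonist CHIR99201. The cultures differed in the FGF signal, with 0, 0.75, 3 or 12 ng/ml FGF2 in 4 of them. The fifth had 30 nM of the FGF receptor inhibitor AZD4547 (FGFRi). Whether the FGFRi culture also received FGF2 is not given in the sources used here, so that comparisons with it cannot be assigned to the inhibitor alone. Values for all of the libraries are given in the order FGFRi, 0, 0.75, 3 and 12 ng/ml FGF2.

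Electrons from NADH enter the respiratory chain at complex I, which is built from core subunits that carry the redox centers and many accessory subunits, with the help of assembly factors. They pass through ubiquinone to complex III and through cytochrome c to complex IV, which reduces oxygen, and the proton gradient that arises on the way drives ATP synthase. Most subunits are encoded in the nucleus, but each of these complexes except complex II also holds subunits that are transcribed and translated inside the mitochondrion. Pluripotent cells are known to lean on glycolysis, and a shift of the balance towards oxidative phosphorylation is a known feature of many differentiating lineages.

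One single-cell 3′ library was sequenced per condition, and levels were compared as UMIs (unique molecular identifiers, 1 per captured RNA molecule) summed over all cells kept in a library, relative to all UMIs of these cells and in counts per 1000000 (CPM). The libraries retained between 1696 and 2725 cells with at least 2500 detected genes and at most 10% mitochondrial UMIs, and between 47824660 and 81538748 UMIs. Between 0 and 2 cell barcodes were shared by any pair of libraries. The limit on mitochondrial UMIs acts on the mitochondrial members themselves, and between 24 and 40 barcodes per library were left out by it alone. The counting error is given as an exact 95% Poisson interval, or as an exact conditional interval for a ratio, and covers counting error only. No test between conditions was possible with single libraries, and differences between cultures of the same condition are unknown. Genes that mark the intended fates differed between the libraries. The primitive streak gene T was at 0.75, 26.7, 92.7, 205 and 208 CPM, and the smooth muscle gene Acta2 at 1008, 141, 23.0, 14.9 and 15.7 CPM. Under FGFRi, T had 36 UMIs, the primitive streak gene Mixl1 had 6 and the presomitic mesoderm gene Tbx6 had 11. Msgn1, also a presomitic mesoderm gene, had 0 UMIs there and at most 2.66 CPM in any library. Hand1, a gene of proximal mesoderm, had 63.5, 85.7, 45.9, 34.2 and 32.7 CPM over the libraries, with the highest level at 0 ng/ml FGF2. Of the epiblast genes, Pou5f1 had 1.74, 3.75, 7.05, 10.7 and 11.3 CPM and Nanog 0.46, 0.70, 1.88, 1.72 and 2.03 CPM, whereas Dnmt3b had 31.1, 48.0, 63.4, 63.4 and 63.3 CPM. The labels name the cells only as EpiSC. No undifferentiated culture was among the libraries, so that these levels could not be compared with one. The cell types therefore differ between the libraries, and fewer cells of a type cannot be told apart from less RNA per cell in the summed levels.

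Together, the nuclear members held a nearly constant share of the RNA along the FGF2 series and a larger share under FGFRi. Their summed level was 25950, 23549, 23398, 23399 and 23806 CPM. The library with the inhibitor was thus above the other libraries, which lay within a narrow range. From FGFRi to 0 ng/ml FGF2 the log2 ratio of the sum was -0.140 (95% interval -0.144 to -0.137), and from 0 to 12 ng/ml it was 0.016 (0.012 to 0.019). The ribosomal protein genes, which fill a large part of each library, moved the other way, with 25.3% of all UMIs under FGFRi and 28.8% to 30.4% in the FGF2 series. Without mitochondrial and ribosomal protein genes in the total, the log2 ratio of the nuclear sum from FGFRi to 0 ng/ml was -0.07. The 13 mitochondrial members amounted to 43881, 41822, 40105, 41636 and 41369 CPM. As with the nuclear members, the level was highest under FGFRi. The mitochondrial sum was lowest at 0.75 ng/ml, while the nuclear sums at 0.75 and 3 ng/ml differed by less than counting error. Its log2 ratio was -0.07 from FGFRi to 0 ng/ml and -0.02 from 0 to 12 ng/ml. The first of these ratios was 0.00021 without mitochondrial and ribosomal protein genes in the total and -0.215 when all deposited barcodes were used. The second was 0.06 with all barcodes, so that its sign depended on the filter.

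The complexes did not all follow the nuclear sum. Genes were assigned to them by symbol, so that a group need not match the complex that holds each protein. Ndufa4 and Ndufa4l2 were thus counted among the accessory subunits of complex I. From FGFRi to 0 ng/ml FGF2, the level decreased for ATP synthase from 8327 to 7521 CPM, for the accessory subunits of complex I from 7246 to 6614 CPM, for complex III from 2484 to 2263 CPM, and for complex IV from 6932 to 6125 CPM. The core subunits of complex I, in contrast, stood at 750, 768, 752, 791 and 819 CPM. The complex I assembly factors, here the Ndufaf genes alone, had 210, 258, 282, 295 and 305 CPM, a higher level at each step. They were the only nuclear group with a higher summed level at every step.

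**Figure D1:**
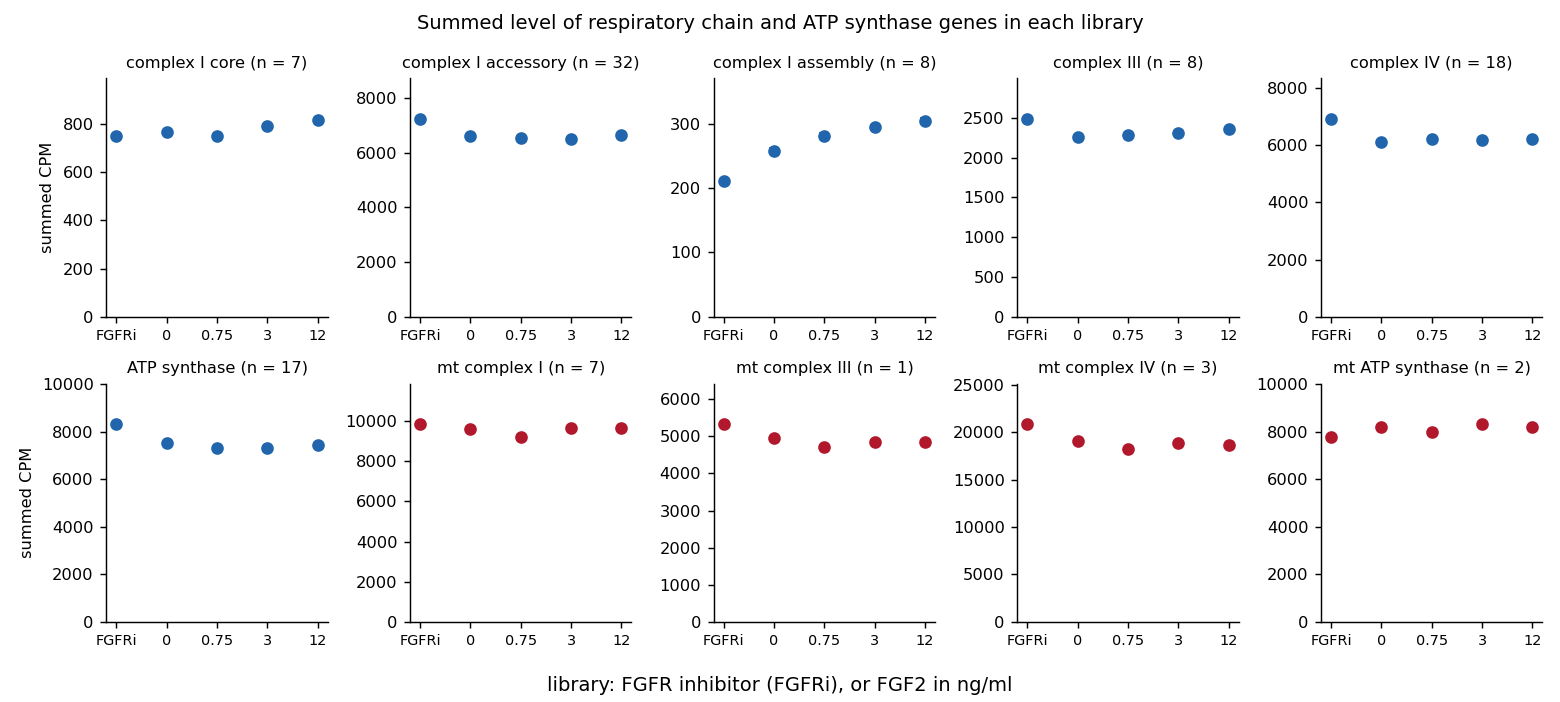
Summed CPM of the members of each complex (y axes, each from 0) in the 5 libraries (x axes, FGFRi or FGF2 in ng/ml), with nuclear groups in blue, mitochondrial (mt) groups in red and exact 95% Poisson intervals, which are mostly smaller than the points. The complex I assembly factors (Ndufaf genes) go from 210 CPM under FGFRi up to 305 CPM with the highest dose, whereas ATP synthase and complex IV are highest under FGFRi.

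To describe single members without replicates, a rule of size was used, under which a gene had to reach 10 CPM in one of both libraries and differ between them by 1.5-fold or more. A second limit was a difference of 25%, relative to the lower of both levels. Of the 90 nuclear members, 82 reached 10 CPM, and the assembly factor Ndufaf5 was among the 8 that did not, with 5.85 to 7.09 CPM. From FGFRi to 0 ng/ml FGF2, 2 of these 82 were at least 1.5-fold higher, compared with 9.5% of the 8445 genes at that level, and 1 was at least 1.5-fold lower, compared with 12.4%. At the limit of 25%, 2 were higher against 21.3% of all genes and 13 were lower against 23.9%. From 0 to 12 ng/ml FGF2, 1 nuclear member was at least 1.5-fold higher and 0 were lower, with 4.1% and 8.85% of all 8237 genes, and at 25%, 3 were higher and 2 were lower, with 11.6% and 16.8% of all genes. The shares of the nuclear members were below those of all genes in each direction, a difference that was not tested. Between neighboring doses, 0 nuclear members reached 25% in either direction. The shares of all genes were 4.62% higher and 9.75% lower from 0 to 0.75 ng/ml, 3.41% and 5.74% from 0.75 to 3 ng/ml, and 1.95% and 1.65% from 3 to 12 ng/ml.

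The direction of the small changes was uneven. From FGFRi to 0 ng/ml FGF2, 23 of the 82 nuclear members were higher and 59 were lower, with a median log2 ratio of -0.11 and a median of 0.00 over all genes. This split depended on the scale. With mitochondrial and ribosomal protein genes left out of the total, 39 were higher and 44 lower (1 more member reached 10 CPM), with a median of -0.04, while the median of all genes was 0.07. Between 0 and 12 ng/ml, 51 were higher and 31 lower, with a median of 0.04 and a median of 0.01 over all genes. This lean was not shared by both of the cadherin classes of thinned cells described below. In cells with Cdh1 but no Cdh2 UMIs, 58 were higher and 25 lower (1 more member reached 10 CPM), with a median of 0.09. In cells with Cdh2 but no Cdh1 UMIs, 32 were higher and 50 lower, with a median of -0.04. Among the groups, the assembly factors had the highest median from FGFRi to 0 ng/ml, at 0.26 with 7 of 7 higher, and complex IV the lowest, at -0.23 with 10 of 12 lower. In the step from 0 to 12 ng/ml, the core subunits of complex I had 7 of 7 higher, at a median of only 0.11.

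**Figure D2:**
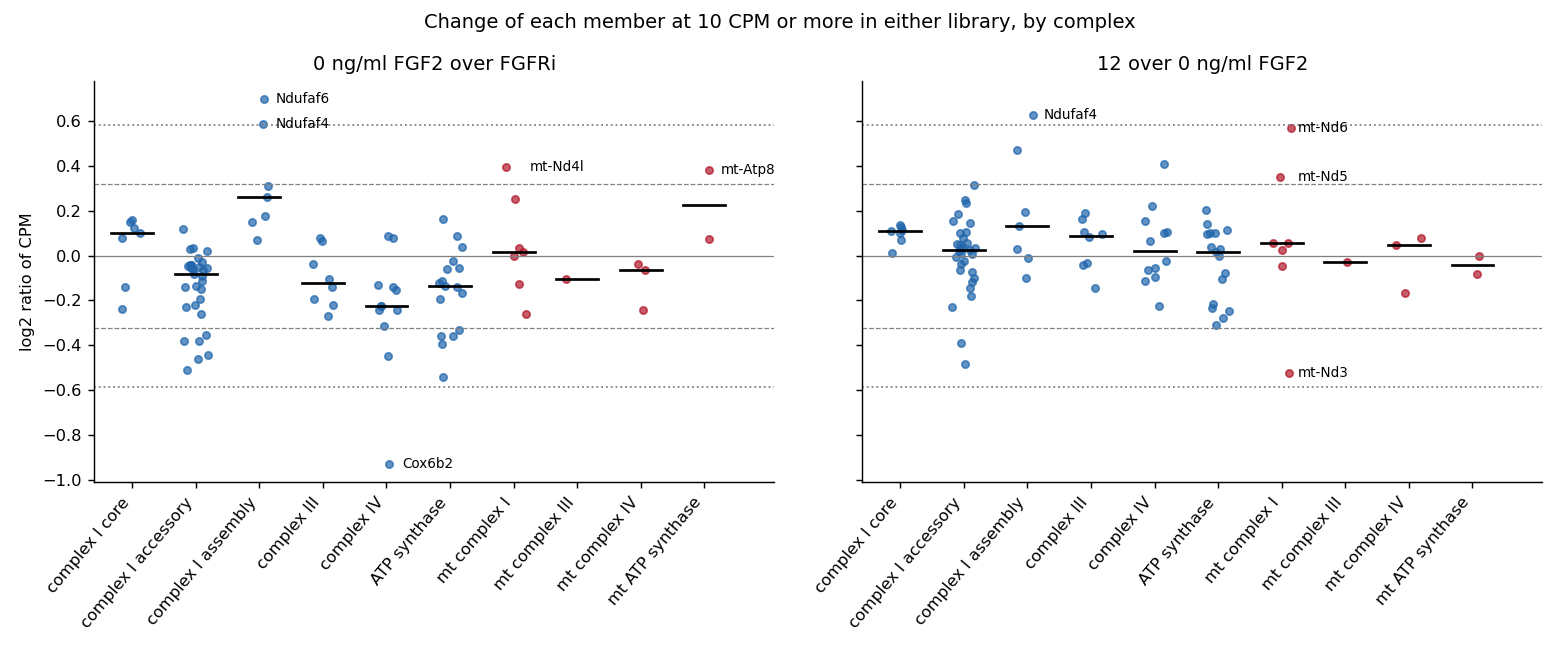
Log2 ratio of CPM (y axis) of each member with at least 10 CPM in either library, by complex (x axis), from FGFRi to 0 ng/ml FGF2 (left) and from 0 to 12 ng/ml FGF2 (right). Black lines are group medians, dashed and dotted lines mark differences of 25% and 1.5-fold, and Ndufaf4, Ndufaf6 and Cox6b2 are the nuclear members past the dotted lines.

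The assembly factor Ndufaf4 varied most clearly along the series. The protein acts early in the assembly of complex I. The gene (chr4:24898083-24905001, plus strand, GRCm38) is shown with the 250 bases before its start, since it was the only member past 1.5-fold in both comparisons. It passed only just from FGFRi to 0 ng/ml, at 1.502-fold, and fell under the limit there in 6 of 10 other settings of filter and scale, with log2 ratios from 0.54 to 0.66, and in 1 of 10 from 0 to 12 ng/ml. The capitals mark a match to the motif CGCATGCG, taken for the factor NRF1, which is known to act at promoters of nuclear respiratory genes.

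Ndufaf4, chr4:24897833-24898082, plus strand (RefSeq, GRCm38.p6): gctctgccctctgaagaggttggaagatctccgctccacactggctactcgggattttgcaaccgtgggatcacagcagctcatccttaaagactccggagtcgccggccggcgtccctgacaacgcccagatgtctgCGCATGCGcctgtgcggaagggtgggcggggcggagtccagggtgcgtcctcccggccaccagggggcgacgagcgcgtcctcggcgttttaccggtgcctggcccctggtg

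Ndufaf4 was at 42.6, 63.9, 78.0, 92.7 and 98.8 CPM. Each library lay above the one before it. The log2 ratio was 0.59 from FGFRi to 0 ng/ml (95% interval 0.51 to 0.67) and 0.63 from 0 to 12 ng/ml (0.57 to 0.69). Ndufaf6, which has a related role in the early assembly of complex I (chr4:11051045-11076205, minus strand), had 15.4, 25.03, 29.6, 31.5 and 34.7 CPM. It too was higher at every step, with a ratio of 1.62 from FGFRi to 0 ng/ml (log2 0.70, 0.57 to 0.83) and of 1.39 from 0 to 12 ng/ml (log2 0.47, 0.38 to 0.57). Ndufaf2 and Ndufaf8, also assembly factors of complex I, had 44.5 to 49.3 CPM and 54.7 to 59.7 CPM over the 5 libraries and did not follow the doses. Between FGFRi and 12 ng/ml, more of the difference in the summed level of the group came from Ndufaf4 than from its other members together.

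Along all 5 libraries from FGFRi to 12 ng/ml FGF2, 7 nuclear members were higher at every step and 7 were lower at every step, compared with 13.3% and 12.1% of the 8761 genes at 10 CPM in any library. Those that were higher were Ndufaf4, Ndufaf6, the complex I subunit Ndufc2, the Rieske iron-sulfur protein Uqcrfs1 of complex III, the catalytic alpha subunit Atp5a1 of ATP synthase, and Atp5g1 and Atp5g2, which both encode the c subunit of its rotor ring. Atp5a1 had 405, 454, 460, 488 and 500.5 CPM, and Atp5g1 had 388, 399, 406, 437 and 459 CPM. Both thus differed by less than 25% in either comparison. Those that were lower were the ATP synthase subunits Atp5e, Atp5j2, Atp5k and Atp5md, the complex IV subunit Cox6c and the complex I subunits Ndufa3 and Ndufb1-ps. Of the 17 ATP synthase genes, 3 were thus higher and 4 lower at every step, or 17.6% and 23.5%, and the others, with the third c subunit gene Atp5g3 among them, were neither. Only the direction of each step in the pooled cells was counted, without regard to counting error. From FGFRi to 0 ng/ml, Ndufaf4, Atp5g1 and Uqcrfs1 were lower in thinned cells with Cdh1 but no Cdh2 UMIs, whereas Ndufaf6, Atp5a1 and Atp5g2 were higher.

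**Figure D3:**
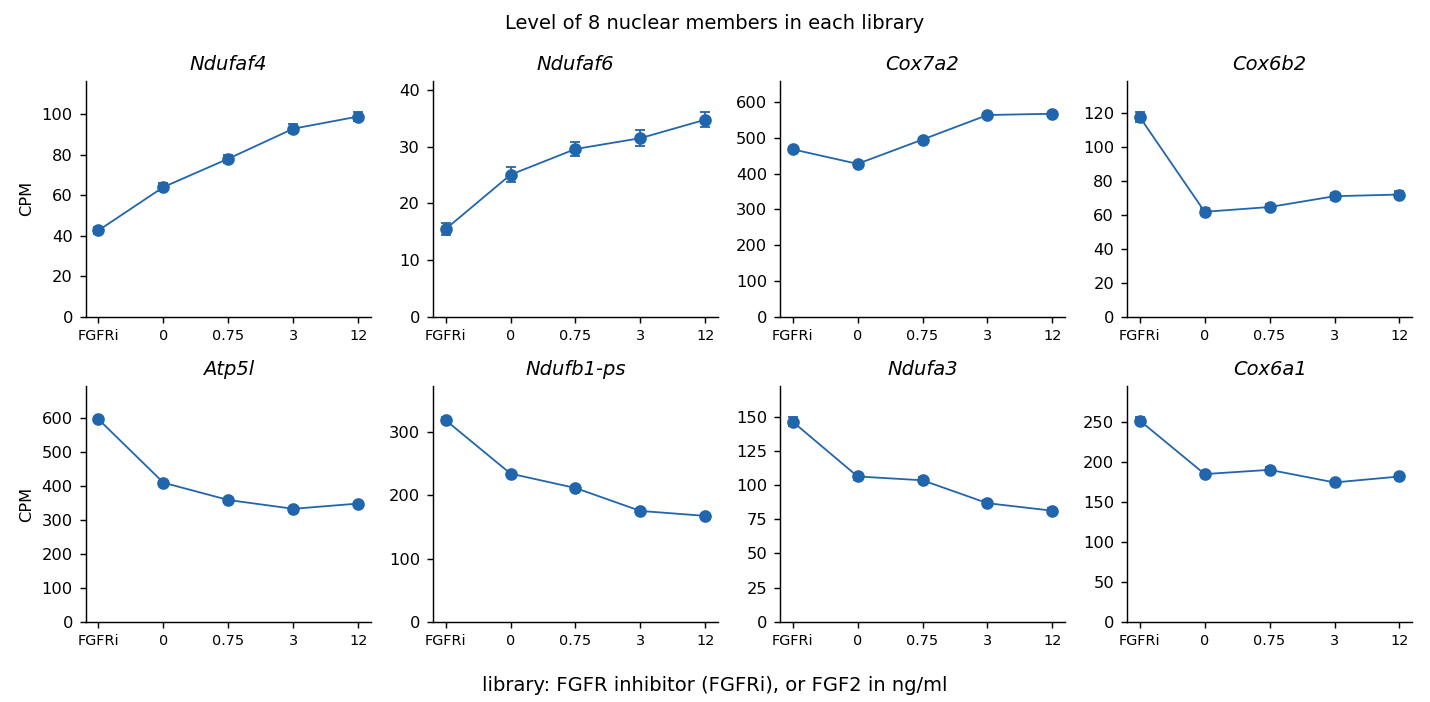
CPM (y axes, each from 0) of 8 nuclear members in the 5 libraries (x axes, FGFRi or FGF2 in ng/ml) with exact 95% Poisson intervals. Ndufaf4 and Ndufaf6 are higher at each step, Ndufb1-ps and Ndufa3 are lower at each step, Cox6b2 is high under FGFRi alone, and Cox7a2 is lowest at 0 ng/ml.

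Among the complex IV genes, Cox6b2 stood out. It encodes a form of subunit 6B that is best known from testis, while Cox6b1 encodes the general form. The 250 bases before its start (the gene lies at chr7:4751792-4753094, minus strand) are shown because it was the only nuclear member at least 1.5-fold higher under FGFRi than at 0 ng/ml FGF2. They hold none of the 4 motifs that were searched, and therefore have no capitals.

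Cox6b2, chr7:4753095-4753344, minus strand (RefSeq, GRCm38.p6): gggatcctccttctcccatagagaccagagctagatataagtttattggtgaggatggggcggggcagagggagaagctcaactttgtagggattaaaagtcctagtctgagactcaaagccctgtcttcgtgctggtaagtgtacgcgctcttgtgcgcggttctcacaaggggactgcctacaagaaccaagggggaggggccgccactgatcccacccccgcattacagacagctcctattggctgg

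Cox6b2 was at 118, 61.9, 64.7, 71.1 and 72.1 CPM. The FGFRi library was 1.90-fold above that at 0 ng/ml (log2 ratio to 0 ng/ml -0.93, 95% interval -0.99 to -0.87), while from 0 to 12 ng/ml the gene went the other way (log2 0.22, 0.16 to 0.28). Its general partner Cox6b1 had 717, 577, 552, 524 and 533 CPM, and was also highest under FGFRi, at a log2 ratio of -0.32 to 0 ng/ml. Cox7a2, the general form of subunit 7A, behaved differently, with 468, 428, 495, 564 and 568 CPM. It was the only complex IV gene at 10 CPM that passed 25% from 0 to 12 ng/ml (ratio 1.33, log2 0.41, 0.39 to 0.43). Cox7a1, the heart and muscle form, remained under the minimum, with 6.92, 7.69, 6.90, 4.24 and 4.21 CPM. Both forms of subunit 7A thus ran in opposite directions between 0 and 3 ng/ml.

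The other forms known from particular tissues or conditions were far below 10 CPM, and several of them were near the limit of detection. Cox8c had 0 UMIs in each of the 5 libraries, which allows up to 3 UMIs, or 0.0368 to 0.0627 CPM, Cox8b had 1 UMI in all, and Cox7b2 had at most 4 UMIs per library. Cox6a2, the heart and muscle form of subunit 6A, had 0, 1, 2, 6 and 12 UMIs from FGFRi to 12 ng/ml FGF2, whereas the general form Cox6a1 had 252, 185, 190, 175 and 182 CPM. Cox4i2, a form known for its induction at low oxygen, lay between 0.13 and 0.80 CPM, beside 948 to 1109 CPM of the general form Cox4i1. Ndufa4l2, a paralog of Ndufa4 that is likewise known as a hypoxia gene, had 3, 15, 47, 79 and 123 UMIs, or 0.06 to 1.74 CPM. It was higher at each step but stayed far below the minimum of the rule. These cells therefore expressed the general forms, with Cox6b2 as the one tissue form above 10 CPM. Of the 5 heart and skeletal muscle genes listed as markers, Myh6, Myh7 and Ckm were at or below 0.88 CPM in every library, Tnnt2 had 1.44 to 4.52 CPM, and Actc1 had 24.8, 12.9, 2.86, 2.45 and 2.01 CPM.

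The 13 nuclear members that were at least 25% lower at 0 ng/ml FGF2 than under FGFRi, or 15.9% against 23.9% of all genes, were the ATP synthase subunits Atp5e, Atp5k, Atp5l, Atp5md and Atp5mpl, the complex IV subunits Cox6a1 and Cox6b2, and the complex I subunits Ndufa1, Ndufa3, Ndufb1-ps, Ndufb2, Ndufb6 and Ndufs5. Atp5l, which encodes subunit g of the membrane part of ATP synthase (chr9:44912557-44920742, minus strand), had 596, 409, 358, 332 and 348 CPM. FGFRi was 1.46-fold above 0 ng/ml FGF2 (log2 ratio -0.54, 95% interval -0.57 to -0.52), the greatest difference of any ATP synthase gene. There are 9 other genes with a nearly identical transcript end, of which Gm5426 is in the count tables, and reads that fit them equally cannot be assigned. The region before its start holds matches to 3 of the motifs, which are shown in capitals in the order NRF1 (CGCATGCG), GABPA (CCGGAAG, here on the other strand) and E-box (CACGTG).

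Atp5l, chr9:44920743-44920992, minus strand (RefSeq, GRCm38.p6): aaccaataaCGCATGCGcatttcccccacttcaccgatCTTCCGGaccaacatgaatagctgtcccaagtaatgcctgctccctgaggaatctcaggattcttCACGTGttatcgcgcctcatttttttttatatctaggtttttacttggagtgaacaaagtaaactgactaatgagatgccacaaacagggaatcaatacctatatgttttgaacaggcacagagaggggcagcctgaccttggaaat

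Ndufa1, an accessory subunit of the membrane arm of complex I, had 156, 110, 104, 96.1 and 96.8 CPM, and Ndufa3, also an accessory subunit, had 147, 106, 104, 86.8 and 81.3 CPM. Ndufb1-ps had 319, 234, 212, 175 and 168 CPM. The last of these is typed as a non-coding RNA in the annotation, so that its place among the subunits rests on its name. It had the greatest decrease of the 82 nuclear members at 10 CPM from 0 to 12 ng/ml FGF2 (ratio 0.71, log2 -0.48, -0.52 to -0.45), followed by Ndufa3 (log2 -0.39, -0.44 to -0.34). In both, the FGFRi library was highest and that with 12 ng/ml lowest.

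The change of the nuclear members varied with the annotated length of their principal transcripts. Where several transcripts ranked equally in the annotation, the longest was taken. Some members had long ones, such as Ndufb2 with 4371 and Atp5md with 2733 bases, and the forms that were counted may be shorter. Of the 18 members with a principal transcript under 600 bases, 1 was higher and 17 were lower from FGFRi to 0 ng/ml FGF2, at a median log2 ratio of -0.22. Of the 29 between 600 and 1000 bases, 5 were higher and 24 lower, with a median of -0.14, and of the 34 of at least 1000 bases, 17 were higher and 17 lower, with a median of 0.00. Over these 81 members Spearman's rho between length and log2 ratio was 0.46 for this comparison and 0.41 from 0 to 12 ng/ml. Both comparisons share the library at 0 ng/ml and are not independent. Over all genes rho was -0.09 and -0.07, and over the 92 cytosolic ribosomal protein genes 0.19 and 0.29. The 59 other genes under 600 bases, without members and ribosomal protein genes, had a median of -0.02, with 27 higher and 32 lower. From 0 to 12 ng/ml the contrast between short members and other short genes was nearly absent. The 18 short members had a median of -0.04, with 6 higher and 12 lower. For the 62 other short genes it was -0.04, with 28 higher and 34 lower. The members still varied with length in this comparison. Their median was 0.03 between 600 and 1000 bases, with 18 higher and 11 lower. From 1000 bases it was 0.11, with 27 higher and 7 lower. These correlations are across genes of the same libraries and are given as descriptions.

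The regions from 250 bases before to 50 bases after the start were matched in RefSeq for 67 of the 90 nuclear members. The NRF1 motif was found in 9 of them on either strand, or 13.4%, compared with 1.87% of all 32851 regions of this length. GABPA (CCGGAAG) was found in 16, or 23.9%, against 8.86%, YY1 (AAGATGGC) in 8, or 11.9%, against 2.75%, and the E-box (CACGTG), which is the same on both strands, in 5, or 7.46%, against 7.15%. The letters of the first 3 motifs were thus more frequent near the starts of members than among all regions, and those of the E-box were about as frequent. The members were not compared with regions of like base composition or with genes of like level. Whether the excess is particular to them was therefore not tested. Among the genes for these factors, Nrf1 had 24.6 CPM under FGFRi and 31.1 to 34.9 CPM in the other libraries. Gabpa had 22.7 to 26.5 CPM and Yy1 97.2 to 106 CPM over the 5 libraries.

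Other genes of the pathway were counted from a list of 62 genes that serve the same chain. Of the 52 at 10 CPM or more under FGFRi or at 0 ng/ml FGF2, 3 were at least 1.5-fold higher at 0 ng/ml and 1 was lower. These were 5.77% and 1.92%, against 9.5% and 12.4% of all genes. At 25%, 10 were higher and 6 lower, or 19.2% and 11.5% against 21.3% and 23.9% of all genes. From 0 to 12 ng/ml, 1 of 56 was at least 1.5-fold higher and 1 lower, or 1.79% each against 4.1% and 8.85% of all genes. At 25%, 10 were higher and 1 lower, or 17.9% and 1.79% against 11.6% and 16.8% of all genes. The genes that keep and express mitochondrial DNA held several of these. Tfam, which packages mitochondrial DNA and starts its transcription, had 41.4, 73.7, 87.5, 94.2 and 94.0 CPM, and the helicase gene Twnk 8.18, 12.3, 17.0, 18.9 and 18.1 CPM. Of the 8 genes of this kind at 10 CPM or more, 4 were at least 25% higher at 0 ng/ml than under FGFRi and 0 were lower, beside 21.3% and 23.9% of all genes. Pprc1, a coactivator of nuclear respiratory genes, had 23.3 CPM under FGFRi and 37.9 to 42.6 CPM in the other libraries.

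Several of the genes that feed electrons to ubiquinone moved in opposite directions. Etfdh, which passes electrons from fatty acid oxidation to ubiquinone, had 21.2, 11.7, 8.71, 6.62 and 6.44 CPM, and was the only listed gene past 1.5-fold in both comparisons. Dhodh, which feeds in electrons from pyrimidine synthesis, had 8.99, 13.2, 15.4, 19.0 and 21.7 CPM. One was thus lower and the other higher at each step. Of the 4 complex II genes (Sdha to Sdhd), 0 differed by 25% in either comparison, and cytochrome c (Cycs) lay between 239 and 294 CPM. Atpaf1, an assembly factor of ATP synthase, had 15.5, 20.1, 21.6, 26.2 and 26.5 CPM. Atpaf2, another one, had 12.4, 16.7, 17.9, 20.7 and 20.9 CPM. Both passed 25% upwards in each comparison. Tmem70, also among the listed assembly factors, was at least 25% lower at 0 ng/ml than under FGFRi. It passed 25% in neither direction from 0 to 12 ng/ml. Of the 25 listed assembly factors at 10 CPM, 3 were at least 25% higher at 0 ng/ml than under FGFRi and 4 lower. These were 12% and 16%, against 21.3% and 23.9% of all genes. Of those for complex I that lie outside the Ndufaf group, Nubpl was among the higher and Timmdc1 among the lower. Slc25a5, a carrier that exchanges ATP for ADP across the inner membrane, had 219, 261, 270, 336 and 377 CPM. The related Slc25a4 had 604 CPM under FGFRi and 483 to 509 CPM in the other libraries.

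The mitochondrial genes are transcribed as long RNAs that are then cut into single messengers. Of the 13 genes, 2 were at least 25% higher and 0 were lower from FGFRi to 0 ng/ml FGF2, and 2 were higher and 1 was lower from 0 to 12 ng/ml, beside the shares of all genes given above. The single genes went in different directions. Of the genes for the catalytic core of complex IV, mt-Co3 was at 9407, 7955, 7465, 7236 and 7088 CPM, lower at each step. Its neighbors of the same complex did not follow, as mt-Co2 lay between 6438 and 7091 CPM and mt-Co1 between 4256 and 4682 CPM. mt-Cytb, the mitochondrial gene of complex III, had 5333 CPM under FGFRi and 4703 to 4954 CPM in the other libraries, with 4954 CPM at 0 ng/ml.

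The complex I genes held the largest changes. mt-Nd3 had 668, 558, 483, 421 and 388 CPM, lower at each step, with a log2 ratio of -0.26 from FGFRi to 0 ng/ml (95% interval -0.28 to -0.24) and of -0.52 from 0 to 12 ng/ml (-0.55 to -0.50). mt-Nd5 ran against it, with 248, 295, 344, 408 and 377 CPM and a log2 ratio of 0.35 from 0 to 12 ng/ml (0.33 to 0.38). It was highest at 3 ng/ml. mt-Nd6, the only protein gene on the other strand, had 32.1, 32.9, 46.4, 57.2 and 48.8 CPM, and was the only member past 25% from 0 to 0.75 ng/ml. Its log2 ratio was 0.04 from FGFRi to 0 ng/ml (-0.06 to 0.13) and 0.57 from 0 to 12 ng/ml (0.49 to 0.65). The ends of mt-Nd5 and mt-Nd6 overlap on opposite strands. Among these genes, mt-Nd3, mt-Nd4l, mt-Co1, mt-Co2, mt-Co3 and mt-Atp6 have a nearly identical copy elsewhere in the annotation. The genes mt-Nd1, mt-Nd2 and mt-Nd4 differed little, with log2 ratios between -0.13 and 0.06 in the 2 comparisons. mt-Nd4 was at 2977 CPM under FGFRi and at 2574 to 2729 CPM in the other libraries.

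**Figure D4:**
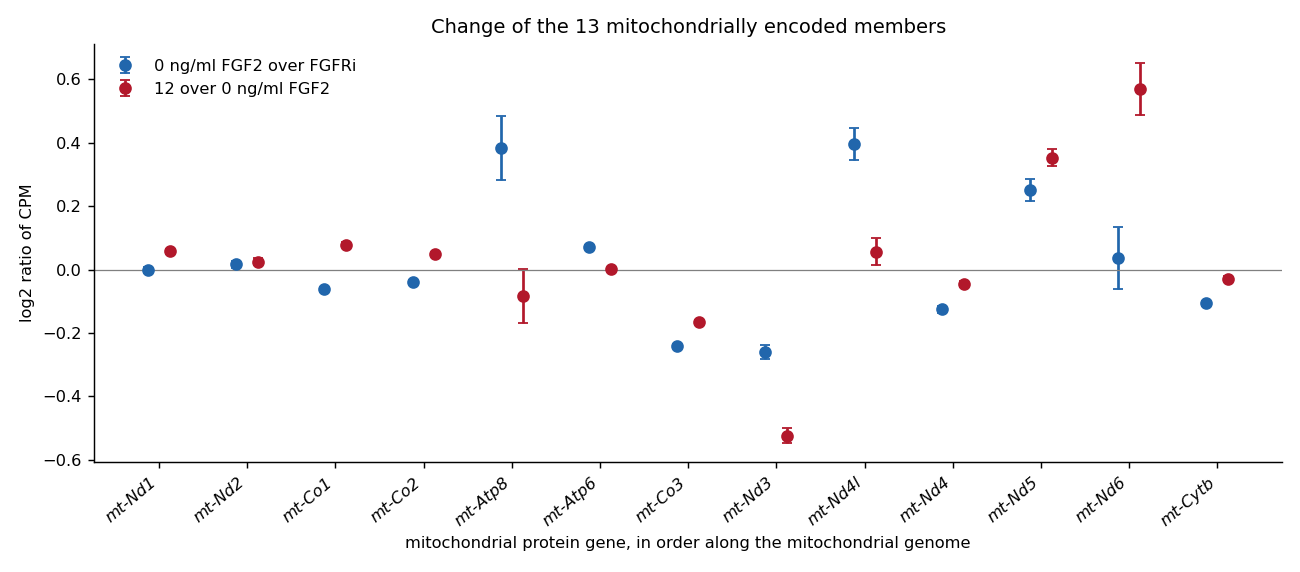
Log2 ratio of CPM (y axis) of the 13 mitochondrial protein genes, in their order along the mitochondrial genome (x axis), from FGFRi to 0 ng/ml FGF2 (blue) and from 0 to 12 ng/ml FGF2 (red), with exact conditional 95% intervals. mt-Nd3 has the lowest ratio and mt-Nd6 the highest, both from 0 to 12 ng/ml, while mt-Nd4l and mt-Atp8 are past 25% from FGFRi to 0 ng/ml and not from 0 to 12 ng/ml.

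The remaining members past 25% were mt-Nd4l and mt-Atp8, both from FGFRi to 0 ng/ml FGF2. mt-Nd4l had 108, 142, 152, 163 and 147 CPM (log2 0.40, 95% interval 0.34 to 0.45), and mt-Atp8 27.9, 36.4, 37.8, 41.7 and 34.4 CPM (log2 0.38, 0.28 to 0.48). Under FGFRi both were lower than in any other library. Each is the first reading frame of a messenger that it shares with a larger gene, mt-Nd4 or mt-Atp6, and overlaps it. The UMI counts of the larger frames did not move with them, since mt-Nd4 had a log2 ratio of -0.13 and mt-Atp6 of 0.07, from 7763 to 8163 CPM. In these 3′ libraries the first frames had far fewer UMIs than the larger ones. Their counts need not measure the level of the shared messenger, and separate changes of its frames cannot be read from them. mt-Atp8 and mt-Atp6 share 43 bases, which are shown in capitals at the end of mt-Atp8 because reads from these bases fit both genes, and mt-Nd4l and mt-Nd4 share 7 bases.

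mt-Atp8 end and mt-Atp6 start, chrM:7910-7969, plus strand (GRCm38): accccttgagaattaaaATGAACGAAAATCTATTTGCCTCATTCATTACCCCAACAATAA

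Since the cultures differed in their mix of epithelial and mesenchymal cells, the members were also compared between cells of the same library. Each cell was thinned to 10000 UMIs, and cells with UMIs of the epithelial cadherin gene Cdh1 but not of the mesenchymal cadherin gene Cdh2 (Cdh1-only cells) were set beside those with the reverse (Cdh2-only cells). There were 546 and 590 such cells under FGFRi, and 643 and 437, 899 and 914, 403 and 1038, and 358 and 1283 along the FGF2 doses. A cell without a Cdh1 UMI may still express it, so that the classes are not pure. The nuclear members made up a larger share of the UMIs of Cdh2-only cells in 5 of 5 libraries. Their mean share was 2.45%, 2.20%, 2.17%, 2.16% and 2.29% in Cdh1-only cells and 2.78%, 2.52%, 2.51%, 2.40% and 2.41% in Cdh2-only cells. Cells with UMIs of both genes had 2.57%, 2.40%, 2.38%, 2.48% and 2.46%. This was above the Cdh2-only cells at 3 and 12 ng/ml and below them in the other libraries. Cells with UMIs of neither lay between the Cdh1-only and Cdh2-only cells in each library. The mitochondrial members made up a larger share in Cdh2-only cells in 4 of 5 libraries, the exception being FGFRi, with differences from -0.21 to 0.15 percentage points.

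Gene by gene, 46 of 82 nuclear members were higher in Cdh2-only cells in each of the 5 libraries, compared with 23.4% of the 7464 genes at 10 CPM. In Cdh1-only cells, 1 was higher in each, compared with 23.0%. Agreement over 5 libraries also depends on the level of a gene, and the members were not compared with genes of like level. The member higher in Cdh1-only cells was Atp5d, which encodes the delta subunit of ATP synthase. In the median over the libraries, the difference was greatest among nuclear members for Uqcrq, a small subunit of complex III, which had 289, 214, 198, 193 and 267 CPM in Cdh1-only and 328, 315, 307, 302 and 319 CPM in Cdh2-only cells. Cox7a2 had 405, 376, 401, 449 and 489.7 CPM in Cdh1-only and 525, 499.5, 588, 608 and 593 CPM in Cdh2-only cells. It was thus higher both in Cdh2-only cells and, in each class, at 12 than at 0 ng/ml, with log2 ratios of 0.38 in Cdh1-only and 0.25 in Cdh2-only cells. Of the 13 mitochondrial members, 4 were higher in Cdh2-only cells in 5 of 5 libraries and 2 in Cdh1-only cells. The former were mt-Nd2, mt-Nd4l, mt-Nd6 and mt-Atp8, and the latter mt-Co3 and mt-Nd4. In the whole libraries Cdh2 had 86.3, 57.2, 71.7, 113 and 122 CPM and Cdh1 had 85.8, 93.6, 74.6, 45.3 and 39.7 CPM. The part of the mix of cells in the pooled values was not tested beyond these classes.

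Ndufaf4 differed between the classes by dose. Under FGFRi it had 43.8 CPM in Cdh1-only cells (95% interval 38.4 to 49.7) and 42.7 CPM in Cdh2-only cells (37.6 to 48.3). At 0 ng/ml FGF2 the Cdh1-only cells were at 42.9 CPM (38.0 to 48.3) and the Cdh2-only cells at 98.2 CPM (89.1 to 108). The classes thus differed by less than counting error under FGFRi and by far more without FGF2. At the further doses the Cdh1-only cells had 63.2, 79.4 and 86.3 CPM, and the Cdh2-only cells 89.5, 96.3 and 97.9 CPM. The pooled rise of Ndufaf4 was therefore not shared by both classes at the same doses. From FGFRi to 0 ng/ml the log2 ratio was -0.03 in Cdh1-only and 1.201 in Cdh2-only cells, and from 0 to 12 ng/ml it was 1.01 in Cdh1-only and -0.0040 in Cdh2-only cells. Ndufaf6 was less divided, with log2 ratios of 0.25 and 0.74 from FGFRi to 0 ng/ml and of 0.70 and 0.39 from 0 to 12 ng/ml.

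**Figure D5:**
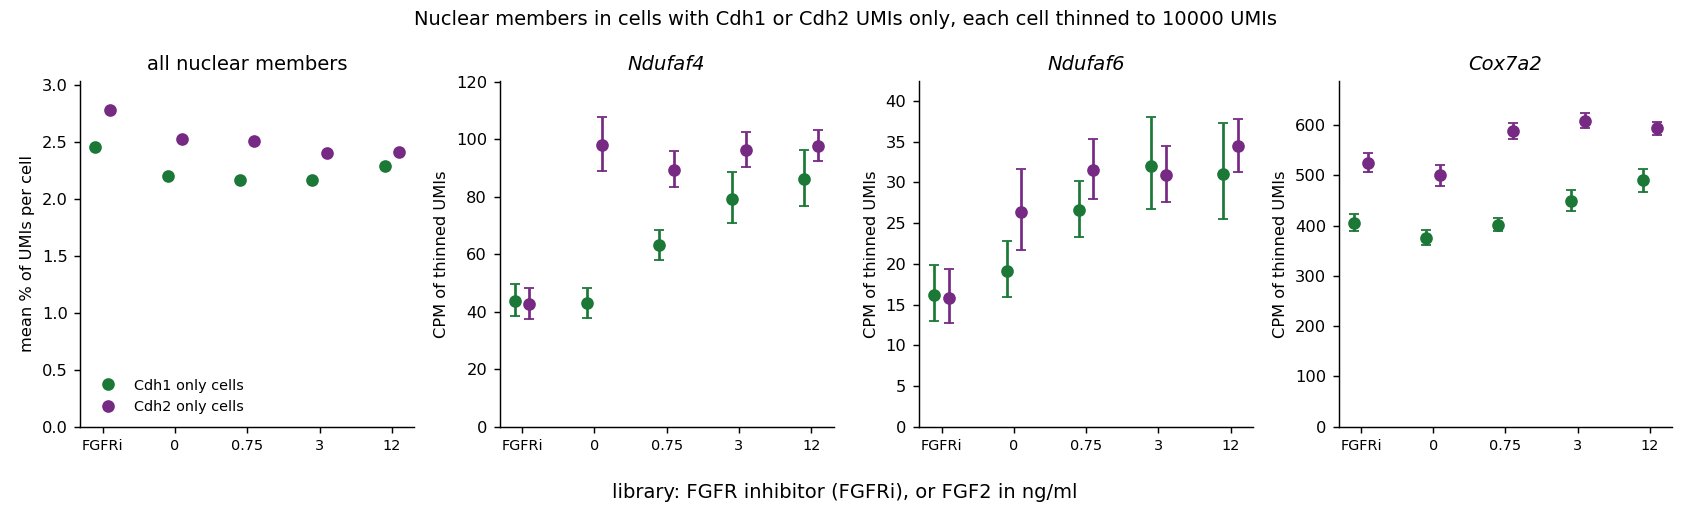
Mean share of UMIs from nuclear members (left, %) and CPM of Ndufaf4, Ndufaf6 and Cox7a2 (y axes, each from 0) in Cdh1-only (green) and Cdh2-only (purple) cells of each library (x axes, FGFRi or FGF2 in ng/ml), after thinning to 10000 UMIs per cell. Bars are exact 95% Poisson intervals, and Ndufaf4 is at 42.9 CPM in Cdh1-only and 98.2 CPM in Cdh2-only cells at 0 ng/ml FGF2.

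Some members that were high under FGFRi kept this order in both classes. Cox6b2 had log2 ratios from FGFRi to 0 ng/ml FGF2 of -0.82 in Cdh1-only and -1.08 in Cdh2-only cells, Atp5l of -0.43 and -0.80, and Cox6a1 of -0.41 and -0.61. For mt-Nd3, the log2 ratios from 0 to 12 ng/ml were -0.53 and -0.60. mt-Nd6, in contrast, had 0.28 and 0.21 within the classes and 0.57 in the pooled cells. A decrease of mt-Nd3 and a high level of Cox6b2 under FGFRi were thus seen in both of these classes. Single members were not compared in cells with UMIs of both cadherin genes or of neither.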

How the data were processed

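For each of the 5 libraries, the authors deposited UMI counts, by gene and by barcode, from 10x Genomics 3′ v3.1 libraries. Reads had been aligned to mm10 with Cell Ranger, whose version is 5.0.1 in the file headers and an earlier one in the methods, and no count had been normalized. Barcodes with fewer than 2500 genes or over 10% mt- UMIs were removed following the study's methods, which retained 10653 of 15375 barcodes and 321559590 UMIs. Groups were taken from the labels. CPM were computed from summed UMIs with no pseudocount.

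The members, the lists of pathway and marker genes, the rule of size (10 CPM in either library, ratio 1.5) and the cadherin classes were chosen with earlier results of these data known. Named were all mt- members, per group the 2 members with the largest ratio up and the 2 with the largest ratio down in the comparisons of FGFRi with 0 and of 0 with 12 ng/ml FGF2, and tissue forms with their partners. Other members past 25%, those with the same direction at every step, Atp5d, Cdh1-only and Cdh2-only values of single members, and the contrasts by transcript length were named after their values had been seen.

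Positions and lengths came from GENCODE vM21 (GRCm38), where all 103 members were found, and regions near gene starts from RefSeq (GRCm38.p6). BLAST+ 2.17.0 found, for 15 nuclear and 6 mitochondrial members, another gene with at least 97% identity over at least 90 of the last 300 bases. Python 3.11.15, NumPy 2.4.6, SciPy 1.17.1, pandas 2.3.3, Matplotlib 3.10.9, and edgeR 4.0.16 (TMM factors) and DESeq2 1.42.0 (size factors) in R 4.3.3 were used. The ratio of levels and its interval were tested on simulated counts, and thinning was checked to return the set number of UMIs. The other steps were not tested on simulated data. Doublets were not called. The alternatives were other limits on mt- UMIs and on cells, other totals and scales, thinning, and other limits of the rule of size. No library had a replicate, so that none could be left out.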

Additional observations from a re-analysis of the deposited data

Results flagged for a closer look

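The barcodes that were left out for fewer than 2500 detected genes, which enter no comparison above, were rich in RNA from the mitochondrial members. The median share of mt- UMIs in them was 51.5%, 49.7%, 50.7%, 36.8% and 49.3% in the order FGFRi, 0, 0.75, 3 and 12 ng/ml FGF2. In the retained cells of these libraries the medians were 4.35%, 4.13%, 3.96%, 4.19% and 4.13%. There were 904, 687, 1064, 910 and 1002 such barcodes, with a median of 1370 to 1733 UMIs each. The share in the library with 3 ng/ml was thus below the others, and its cause was not tested.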

How the results depend on the processing

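Each value below is a log2 ratio unless a count is named, and the cause of a shift was not tested. For the nuclear sum from FGFRi to 0 ng/ml FGF2 (-0.140), the value was -0.129 at a limit of 5% mt- UMIs, -0.121 with all deposited barcodes, -0.156 with the same weight for every cell, -0.0705 without mt-, Rps and Rpl genes in the total, -0.146 without the deepest 5% of cells, -0.161 after thinning, -0.126 with TMM factors, -0.156 with DESeq2 size factors and -0.158 in Cdh1-only cells. It kept its direction in each of these and in the others tried. From 0 to 12 ng/ml (0.0157), it was 0.0119 at 5%, 0.0119 with all barcodes, 0.0289 without mt-, Rps and Rpl genes, 0.00097 with TMM factors, 0.0561 in Cdh1-only cells and -0.0634 in Cdh2-only cells, so that its direction depended on the class of cells.

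For the mitochondrial sum from FGFRi to 0 ng/ml (-0.0693), the value was -0.0492 at 5%, -0.0772 with no limit, -0.215 with all barcodes, -0.0724 without mt- genes in the total, 0.00021 without mt-, Rps and Rpl genes, -0.0798 without the deepest cells, -0.0655 after thinning, -0.0553 with TMM factors, -0.0855 with DESeq2 size factors, and -0.102 and -0.00985 in Cdh1-only and Cdh2-only cells. From 0 to 12 ng/ml (-0.0157), it was -0.00652 at 5%, -0.0197 with no limit, 0.0596 with all barcodes, -0.0116 with the same weight for every cell, -0.00247 without mt-, Rps and Rpl genes, -0.00963 without the deepest cells, -0.0121 after thinning, -0.0304 with TMM factors, -0.0129 with DESeq2 size factors, and -0.0193 and -0.0219 in the cadherin classes. Both mitochondrial sums thus changed sign under 1 setting each.

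The count of nuclear members past the rule from FGFRi to 0 ng/ml (3) was 15 at a difference of 25%, 0 at a ratio of 2 and 7 with no minimum level. It was 2 at 5% mt- UMIs, with no limit on them, with the same weight for every cell, without mt- genes in the total, after thinning and with DESeq2 size factors, where Ndufaf4 was under 1.5-fold, and 2 at a minimum of 50 CPM, which Ndufaf6 does not reach. From 0 to 12 ng/ml (1) it was 0 with the same weight for every cell, 2 without mt-, Rps and Rpl genes in the total, 5 at 25%, 0 at 2 and 5 with no minimum. Ndufaf4 reversed at -0.0283 in Cdh1-only cells from FGFRi to 0 ng/ml and at -0.0040 in Cdh2-only cells from 0 to 12 ng/ml. The cadherin classes were added as alternatives after the data had been seen. Among the 98 log2 ratios of named members, between 0 and 6 changed sign under the alternatives other than the cadherin classes, none of them past 25%, and 20 and 13 did so in those classes.

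No paired analysis was possible because each condition has 1 library. Differences between libraries include those between cultures and library preparations. Members under 10 CPM rest on few UMIs, and near-identical genes, strand overlaps and reads shared by overlapping mitochondrial genes limit single members. The limit of 10% on mt- UMIs truncates the mitochondrial shares of cells.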

Other observations

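Within a library, the share of UMIs from mitochondrial members was lower in deeper cells, with Spearman's rho between -0.25 and -0.40 over the retained cells of each of the 5 libraries. For the nuclear members rho with depth was between -0.16 and -0.02. The shares of nuclear and mitochondrial members had rho values from -0.12 to 0.05 with each other, close to 0 in each library. These values are across cells of the same library, share the total in their denominators, and are given as descriptions.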
